A study of Mus musculus with 12 samples.

Results

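Potassium channel subunits were examined in the cortex of lupus-prone and control mice. The members were all non-control probes whose deposited gene name begins with Kcn followed by a family letter and a number, which gave 151 probes in 178 spots for 97 gene names, of 39429 probes in 43020 spots for 29608 gene names on the array. Gene expression was measured in 12 female mice of about 12 weeks at diestrus, 4 in each of 3 groups. MRL/lpr mice carry lpr, a loss-of-function mutation of the death receptor gene Fas, on the MRL background. Fn14ko mice are on the same MRL/lpr background, so they also carry lpr, and in addition lack Fn14 (Tnfrsf12a), the receptor of the cytokine TWEAK. MRL/+ mice (strain MRL/MpJ) carry neither change. The first 2 groups were bred together as littermates whereas the MRL/+ mice came from another supplier, so origin and the lpr mutation cannot be told apart.

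Potassium channels let potassium leave the cell, which returns a neuron to rest after an action potential and sets how readily it fires again. Voltage-gated channels have 4 subunits around the pore, and silent subunits, which conduct only within mixed channels, can be among these 4. Auxiliary subunits modify gating and trafficking. Inward rectifiers and two-pore-domain channels hold the resting potential, inward rectifiers of astrocytes clear potassium from the extracellular space, and calcium- or sodium-activated channels link firing to the ions that enter the cell.

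Each of 6 two-colour arrays carried RNA of 2 mice of the same group, with odd replicate numbers labelled by Cy3 and even ones by Cy5. Every group had its own slide, so that the effects of slide and of group cannot be told apart. The log2 signals of any 2 mice correlated at 0.87 to 0.99 over all retained probes. The Cy5 channels of both MRL/+ arrays stood apart, where dark control spots reached 6.77 and 6.61 times their surroundings and in the other 10 channels 1.22 to 2.73 times. In these MRL/+ replicates 2 and 4, 54 and 29 of the 151 potassium channel probes were well above background by the mark of the scanner software, against 96 to 123 in the other mice (the plot of detection by mouse). Of the 86 probes well above background in all 8 MRL/lpr and Fn14ko mice, 28 were so in all 4 MRL/+ mice. For this reason member calls against MRL/+ that did not hold without those mice are described with the values that show it. No member spot was saturated. All 9 marker genes of cortical excitatory neurons on the array had a retained probe.

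**Figure D1:**
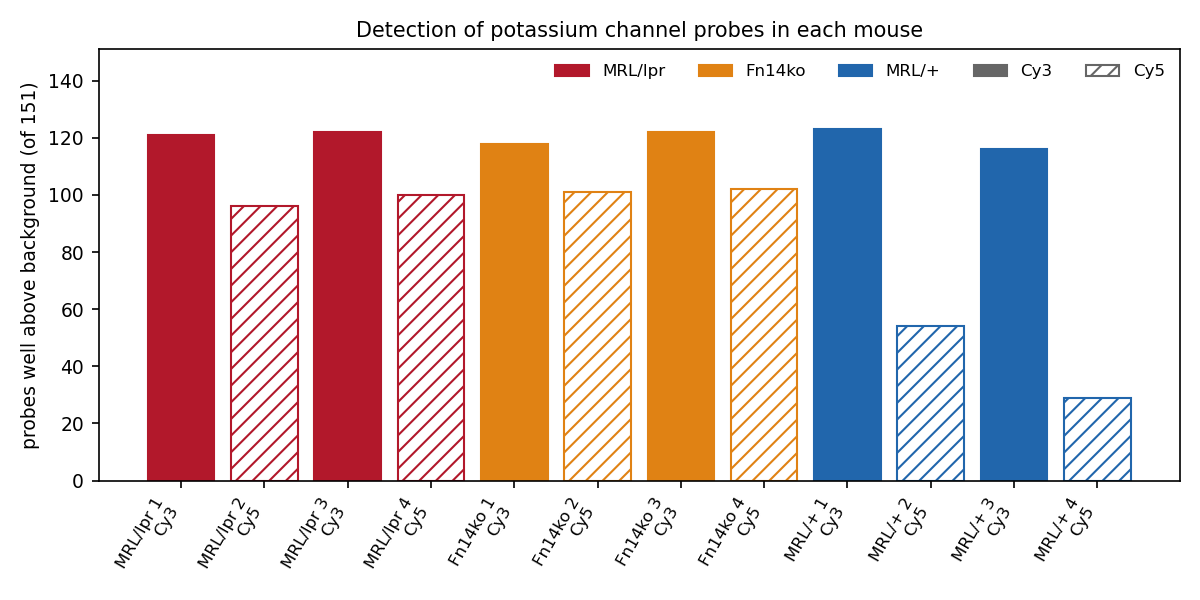
Number of the 151 potassium channel probes that the scanner software marked as well above background in each mouse; colours are groups, filled bars Cy3 and hatched bars Cy5. MRL/+ replicates 2 and 4, both in Cy5, had 54 and 29 such probes, and the other 10 mice 96 to 123.

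A probe was retained when an unmarked spot of it was at least 2 times the local background in all 12 mice, which left 104 member probes of 76 genes; 45 probes were left out as dim and 2 as marked. Signals are given as multiples of the median retained spot of the mouse, and each fold change is on the log2 scale from limma, with its standard error and a p-value adjusted over all 22419 probes tested. The probes on which the results turn are 60 bases long. The last 30 bases of some of them are given from the deposited design, with mm9 positions, because probes of one gene gave different results. Capitals mark the hexamers AATAAA and ATTAAA, the letters of the polyadenylation signal that lies shortly before the end of a messenger RNA; a match is not shown to be such a signal. The probe of Kcnh3 lies at chr15:99073172-99073231, that of Kcnj9 at chr1:174252224-174252283, that of Kcnf1 at chr12:17179527-17179586 and that of Kcnab1 at chr3:65181718-65181777. The 2 retained probes of Kcna2 are at chr3:106909700-106909759 (probe a) and chr3:106915982-106916041 (probe b).
Kcnh3: ctcatgttttttatATTAAAaaacATTAAA
Kcnj9: ggccatggagagacttAATAAAgggtttta
Kcnf1: gctcgttcaggaatagaagaccaagcccag
Kcnab1: aaggtggggtcattttctaactcttatttg
Kcna2 probe a: tagtcgtgggcatgactacacagcttacca
Kcna2 probe b: actagtatctgaagcagttgaggtgataca

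Against MRL/+, 14 of the 104 retained probes were higher and 15 lower in MRL/lpr, that is 27.9%, where 15% of all retained probes passed the test (1276 or 5.69% higher and 2085 or 9.3% lower). The median log2 fold change was -0.20 over the members and -0.15 over all probes. The mice of both groups did not overlap in 24 members in the higher and 19 in the lower direction, against 10.2% and 14.5% of all retained probes. They did not overlap in 28 of the 29 called probes, and the exact 2-sided permutation p of each of these was 0.0286, the smallest that 4 against 4 mice allow. Among the 27 retained probes well above background in every mouse, 5 were higher and 2 lower, 25.9% where 15.2% of all such probes passed. In cortex tissue, fewer cells that make a transcript and less transcript per cell cannot be told apart.

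The higher and lower probes differed in how well they were measured in MRL/+ (the plot of fold change by signal). The mean signal was below the median spot for 14 of the 15 lower probes and 3 of the 14 higher ones. All 14 higher and 13 of the 15 lower probes were well above background in all MRL/lpr and Fn14ko mice, but only 5 of the higher and 2 of the lower were so in all 4 MRL/+ mice. Without MRL/+ replicates 2 and 4, all 29 kept their direction, and 9 of the 14 higher and 2 of the 15 lower stayed past the threshold, in a fit with 2 MRL/+ mice in which 5.08% of all retained probes passed. In the Cy3 mice alone, 12 of the higher and 5 of the lower did. In the scanner software's processed signal, 12 of the higher and 5 of the lower passed as well. The part of the Cy5 background in these results was not tested.

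**Figure D2:**
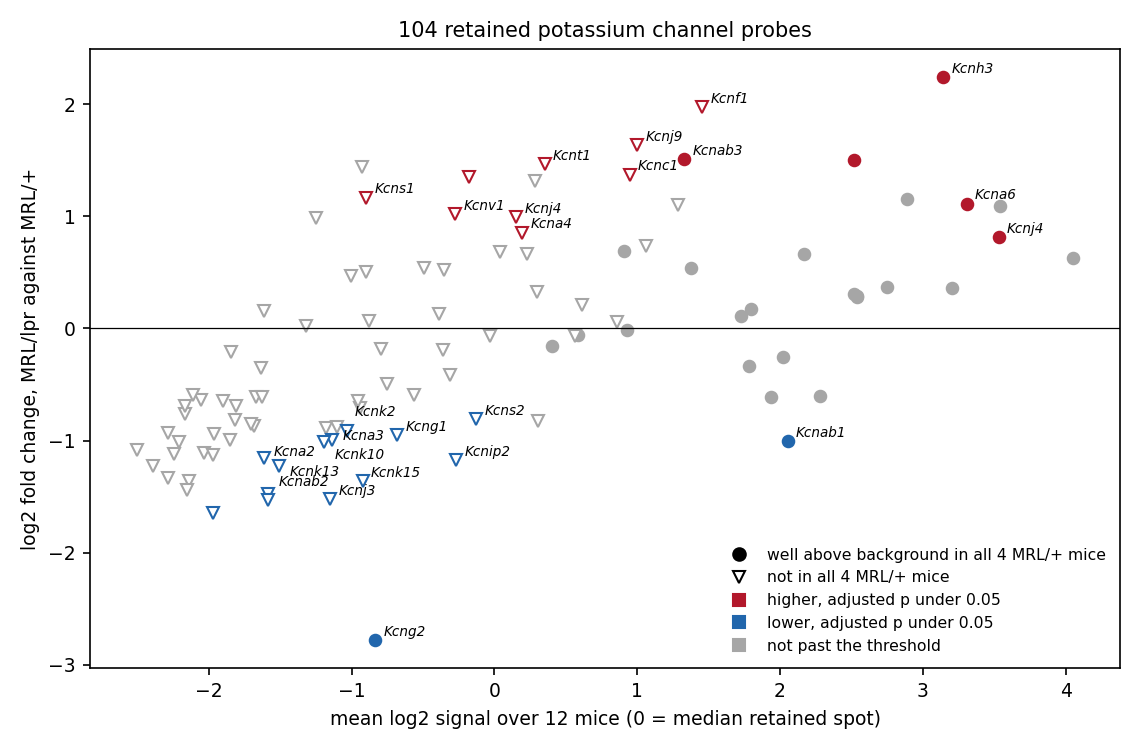
Log2 fold change of MRL/lpr against MRL/+ for the 104 retained potassium channel probes, plotted over the mean log2 signal of the 12 mice (0 is the median retained spot); filled circles are well above background in all 4 MRL/+ mice, open triangles are not, and colours show the limma result. The 15 lower probes lie mostly left of 0 and the 14 higher ones mostly right of it.

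Pore-forming subunits of voltage-gated channels were measured by 41 retained probes of 27 genes, of which 6 were higher and 4 lower in MRL/lpr than in MRL/+. The largest rise of all members in the main fit was that of Kcnh3. This channel of forebrain neurons opens near the resting potential. Its signal was 21.6, 19.7, 18.6 and 15.7 in the MRL/lpr mice and 5.03, 2.58, 8.32 and 2.31 in the MRL/+ mice. All MRL/lpr mice lay above all MRL/+ mice, and the log2 fold change was 2.24 ± 0.32 (4.72-fold, adjusted p = 0.00117, n = 4 per group by limma). It was 1.74 without MRL/+ replicates 2 and 4, which had the lowest levels, and 1.25 in the scanner software's processed signal, and passed the threshold in both. Kcnf1 had larger log2 fold changes than Kcnh3 in both (2.04 and 1.91).

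Kcna4, a rapidly inactivating channel of axons, had 1.33, 2.20, 1.15 and 2.31 in MRL/lpr and 0.757, 1.09, 0.826 and 1.06 in MRL/+. The groups did not overlap, although the margin between the lowest MRL/lpr and the highest MRL/+ mouse was small. Its log2 fold change was 0.85 ± 0.19 (adjusted p = 0.011) and passed the threshold neither without MRL/+ replicates 2 and 4 (0.71, adjusted p = 0.101) nor in the Cy3 mice alone (0.64, adjusted p = 0.103).

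In several genes the result depended on the probe (the plot of genes with several probes). Of the 23 genes with 2 or more retained probes, 1 had every probe past the threshold in the same direction, 1 had probes past it in opposite directions, 8 had some probes past it, and 13 had none. Probes of opposite sign occurred in 9 of the 23. Which probe reports which transcript was not tested.

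Kcnc1, a fast channel of cells that fire at high rates, had 1 of 3 probes past the threshold. That probe read 3.72, 3.36, 2.77 and 3.18 in MRL/lpr and 1.55, 1.31, 1.69 and 0.720 in MRL/+, without overlap (log2 fold change 1.37 ± 0.29, adjusted p = 0.00856). The other 2 had -0.33 ± 0.22 and -0.83 ± 0.34 (adjusted p = 0.269 and 0.102). Without MRL/+ replicates 2 and 4 the last of these passed as lower (-1.32, adjusted p = 0.0449) while the first probe still passed as higher (1.06, adjusted p = 0.0497). The mean of the 3 had a log2 fold change of 0.04 (adjusted p = 0.896). Kcna6, an axonal channel, gave a like spread: the probe at chr6:126658424-126658483 rose from 6.51, 7.36, 7.14 and 5.03 in MRL/+ to 11.8, 15.3, 14.4 and 14.5 in MRL/lpr (log2 fold change 1.11 ± 0.23, adjusted p = 0.00875). Both other probes, the farther one 28498 bases upstream of it, had -0.26 ± 0.25 and -1.34 ± 0.50 and missed the threshold (adjusted p = 0.461 and 0.0848). The higher probe did not pass in the processed signal (0.31, adjusted p = 0.172) nor without MRL/+ replicates 2 and 4 (0.97, adjusted p = 0.0583). In the processed signal both other probes passed as lower (-0.98, adjusted p = 0.000662, and -1.64, 0.00953).

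The 4 lower pore-forming probes included 1 each of Kcna2 and Kcna3. Kcna3, a channel best known from T lymphocytes and microglia, had 0.396, 0.280, 0.379 and 0.391 against 0.639, 0.751, 0.588 and 0.914, a log2 fold change of -0.99 ± 0.25 (adjusted p = 0.0223). The groups did not overlap. Both probes were well above background in 2 of the 4 MRL/+ mice, and without MRL/+ replicates 2 and 4 Kcna3 had -0.65 (adjusted p = 0.205). In the processed signal Kcna3 had -0.29 (adjusted p = 0.658).

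Kcna2, a channel of axons beside the nodes of Ranvier, had one probe on either side of 0. Probe b, past the threshold, read 0.268, 0.209, 0.221 and 0.304 in MRL/lpr and 0.489, 0.673, 0.366 and 0.770 in MRL/+ (log2 fold change -1.16 ± 0.36, adjusted p = 0.0458). Probe a, 6282 bases upstream, read 3.05, 1.96, 4.20 and 11.9 in MRL/lpr and 2.20, 2.14, 1.88 and 1.59 in MRL/+, overlapping (1.10 ± 0.52, adjusted p = 0.144). MRL/lpr replicate 4 was well above the other mice there. The lower call did not hold without MRL/+ replicates 2 and 4 (-0.69, adjusted p = 0.379), and the processed signal moved it to -0.06 (adjusted p = 0.938).

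Other pore-forming genes of neurons named by rule did not pass the test. Kcna1, the main partner of Kcna2, had a log2 fold change of 0.30 ± 0.24 (adjusted p = 0.352), Kcnd2, a channel of dendrites, -0.60 ± 0.28 (0.137) and Kcnc2 0.73 ± 0.37 (0.169). Kcnq3, a subunit of the channel behind the M-current that limits repetitive firing, had -0.88 ± 0.28 (0.0507) and Kcnh1 0.68 ± 0.24 (0.0693). The median standard error over the retained members was 0.29.

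**Figure D3:**
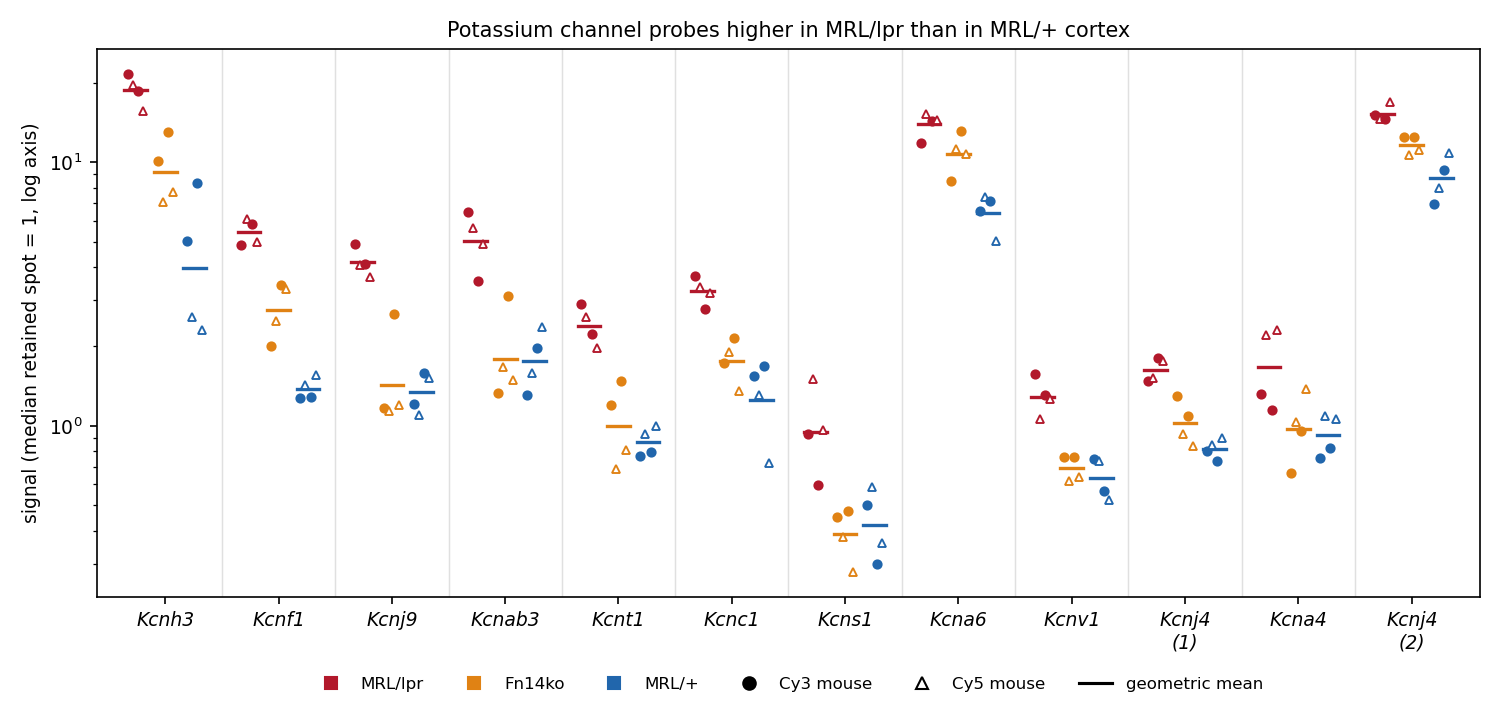
Signal of 12 of the 14 potassium channel probes higher in MRL/lpr than in MRL/+, on a log axis in multiples of the median retained spot; circles are Cy3 mice, triangles Cy5 mice and bars geometric means of 4 mice. The MRL/lpr mice lie above all MRL/+ mice in each of those drawn, while Fn14ko lies near MRL/+ for some (Kcnj9, Kcnab3, Kcnv1) and between the groups for others (Kcnf1, Kcnh3).

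Silent subunits had 9 retained probes of 7 genes, of which 3 were higher and 3 lower in MRL/lpr. Kcnf1 had the second largest rise of all members in the main fit. It read 4.85, 6.12, 5.85 and 5.00 in MRL/lpr, 2.01, 2.50, 3.42 and 3.30 in Fn14ko and 1.27, 1.42, 1.28 and 1.55 in MRL/+. None of the 3 groups overlapped with another. The log2 fold change was 1.98 ± 0.21 for MRL/lpr against MRL/+ (adjusted p = 0.000296) and stayed at 2.04 without MRL/+ replicates 2 and 4 (adjusted p = 0.00259). Its other probe, 1980 bases upstream and dim, had 0.16 ± 0.40 (adjusted p = 0.797).

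Kcnv1 had 1.57, 1.06, 1.31 and 1.27 in MRL/lpr and 0.748, 0.738, 0.565 and 0.525 in MRL/+, and its log2 fold change was 1.02 ± 0.18 (adjusted p = 0.00381), which also passed without MRL/+ replicates 2 and 4. Kcns1 had 0.931, 1.50, 0.596 and 0.963 against 0.502, 0.588, 0.299 and 0.358 (1.17 ± 0.35, adjusted p = 0.039). Both groups came close to each other there, and without those 2 mice the value was 1.24 and missed the threshold (adjusted p = 0.168).

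The largest fall of all members was that of a probe of Kcng2, a silent subunit known from heart as well as brain. It read 0.162, 0.263, 0.136 and 0.241 in MRL/lpr, 0.686, 0.752, 0.607 and 0.705 in Fn14ko and 1.15, 1.21, 1.27 and 1.74 in MRL/+, and no 2 of the groups overlapped. It was well above background in all 12 mice, with a log2 fold change of -2.78 ± 0.22 (adjusted p = 5.28e-05) that was -2.88 without MRL/+ replicates 2 and 4. Its second probe did not move with it. With 1.75, 1.51, 1.30 and 2.43 in MRL/lpr and 1.17, 1.01, 1.10 and 1.03 in MRL/+ it had 0.66 ± 0.25 (adjusted p = 0.081), and the gene mean was -0.34 (adjusted p = 0.261). Kcns2 had -0.81 ± 0.19 (adjusted p = 0.0146), and Kcng1, which was chosen after its values were seen, had -0.95 ± 0.22 (0.0143). Neither passed without MRL/+ replicates 2 and 4 (-0.72, adjusted p = 0.125, and -0.92, 0.0968), nor in the processed signal, where they had -0.47 and -0.45.

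**Figure D4:**
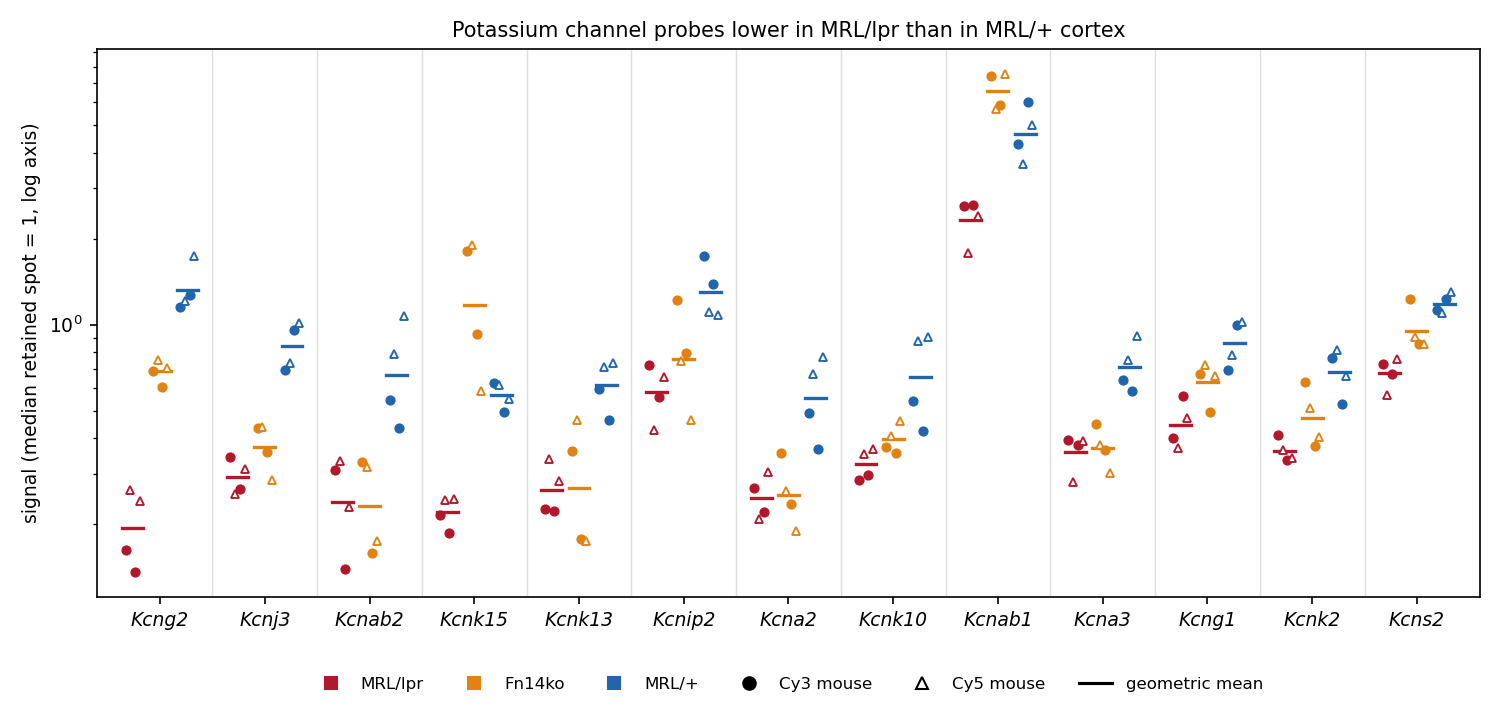
Signal of 13 of the 15 potassium channel probes lower in MRL/lpr than in MRL/+, drawn like the higher probes on a log axis in multiples of the median retained spot. The MRL/lpr mice lie below all MRL/+ mice in all 13 drawn, and in several (Kcnab2, Kcnk10, Kcna2) the Cy5 MRL/+ mice, drawn as triangles, lie highest.

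Auxiliary subunits, counted here as the Kcnab, Kcne and Kcnip families, had 10 retained probes of 8 genes. The 3 beta subunits of the Kcnab family, which bind the channels of the Kcna family, did not move together. Kcnab3 had 6.51, 5.64, 3.54 and 4.89 in MRL/lpr and 1.31, 1.58, 1.97 and 2.37 in MRL/+ (log2 fold change 1.51 ± 0.34, adjusted p = 0.0125). Kcnab1 had 2.60, 1.78, 2.63 and 2.40 in MRL/lpr, 7.43, 5.71, 5.89 and 7.54 in Fn14ko and 4.31, 3.65, 6.02 and 5.00 in MRL/+, so that the MRL/lpr mice were the lowest without overlap. Its log2 fold change against MRL/+ was -1.01 ± 0.23 (adjusted p = 0.0121), and both Kcnab1 and Kcnab3 were well above background in all 12 mice. Without MRL/+ replicates 2 and 4 their values were -1.04 (adjusted p = 0.0661) and 1.70 (0.0524), while both passed in the Cy3 mice alone.

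Kcnab2 had a log2 fold change of -1.48 ± 0.39 (adjusted p = 0.0255), with 0.309, 0.332, 0.140 and 0.230 against 0.544, 0.789, 0.434 and 1.07. It was well above background in 2 of 4 MRL/+ mice, and without MRL/+ replicates 2 and 4 it had -1.13 (adjusted p = 0.199). Kcnip2, a calcium-binding partner of the Kcnd channels, had 0.721, 0.426, 0.560 and 0.657 in MRL/lpr and 1.74, 1.11, 1.39 and 1.08 in MRL/+, without overlap. It gave -1.17 ± 0.25 (adjusted p = 0.0103), and -1.17 without those mice as well, though with an adjusted p of 0.0826. It missed the threshold in the processed signal too (-1.21, adjusted p = 0.0566).

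Inward rectifiers had 15 retained probes of 12 genes, with 3 higher and 1 lower. Kcnj9, a subunit of the channels opened by G proteins, had 4.92, 4.08, 4.10 and 3.68 in MRL/lpr and 1.21, 1.10, 1.59 and 1.52 in MRL/+ (log2 fold change 1.64 ± 0.28, adjusted p = 0.00283), and 1.79 without MRL/+ replicates 2 and 4. Kcnj3, another subunit of the same channels, went the other way at the probe past the threshold, with 0.344, 0.255, 0.265 and 0.313 against 0.694, 0.734, 0.961 and 1.02 (-1.52 ± 0.24, adjusted p = 0.00186). That call held without those mice (-1.42, adjusted p = 0.0255) but not in the processed signal (-0.90, adjusted p = 0.159), and the second probe of Kcnj3 had -0.61 ± 0.29 (adjusted p = 0.144).

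Kcnj4, a strong rectifier of forebrain neurons, was the only one of the 23 genes with 2 or more retained probes in which every probe passed the test in one direction. Its brighter probe had 15.1, 14.5, 14.6 and 16.9 in MRL/lpr and 6.97, 8.02, 9.38 and 10.9 in MRL/+ (0.81 ± 0.20, adjusted p = 0.0182), and the other had 1.00 ± 0.19 (adjusted p = 0.00588). The groups did not overlap at either probe. Both calls held without MRL/+ replicates 2 and 4 (adjusted p = 0.0388 and 0.014), but in the processed signal the brighter probe had 0.45 and missed the threshold (adjusted p = 0.0516), while the other had 1.65. Kcnj10, the rectifier by which astrocytes take up potassium, had 12.6, 12.5, 17.0 and 18.9 against 9.37, 5.87, 11.97 and 3.71, a log2 fold change of 1.09 ± 0.36 that missed the threshold (adjusted p = 0.0564). It was 0.50 without MRL/+ replicates 2 and 4 (adjusted p = 0.315), 0.47 in the Cy3 mice alone (0.373) and 0.41 in the processed signal (0.121).

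Two-pore-domain channels had 13 retained probes of 11 genes, with 0 higher and 4 lower in MRL/lpr by limma (Kcnk15, Kcnk13, Kcnk10 and Kcnk2). A further member of this class, Kcnk7, was too dim to be retained and brighter in MRL/lpr, and is described further below. Kcnk15 had 0.215, 0.244, 0.186 and 0.246 in MRL/lpr, 1.81, 1.90, 0.928 and 0.584 in Fn14ko and 0.627, 0.614, 0.495 and 0.547 in MRL/+ (log2 fold change against MRL/+ -1.36 ± 0.34, adjusted p = 0.0208). Kcnk10 and Kcnk2, channels opened by stretch and fatty acids, had -1.01 ± 0.23 (adjusted p = 0.0132) and -0.91 ± 0.23 (0.0213). Kcnk13, a channel of microglia, had -1.23 ± 0.33 (0.0277). The groups did not overlap in any of the 4. Without MRL/+ replicates 2 and 4, none passed (adjusted p = 0.112 to 0.163), with -1.33 for Kcnk15, -1.16 for Kcnk13, -0.71 for Kcnk10 and -0.77 for Kcnk2. In the processed signal Kcnk15 passed with -2.02, while Kcnk13 (-0.62), Kcnk10 (-0.64) and Kcnk2 (-0.82) did not. Kcnk1 had 0.11 ± 0.20 (adjusted p = 0.699).

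Among 13 retained probes of calcium- and sodium-activated channels, 1 was higher and 0 lower by limma. The Kcnmb subunits and Kcnu1 were counted in this class. Kcnt1, the sodium-activated channel, had 2.89, 2.58, 2.24 and 1.98 in MRL/lpr and 0.769, 0.932, 0.796 and 0.996 in MRL/+ (log2 fold change 1.46 ± 0.27, adjusted p = 0.00464), and 1.87 without MRL/+ replicates 2 and 4. A second Kcnt1 probe, too dim to be retained, was well above background in all 4 MRL/lpr mice, 1 of the Fn14ko mice and 0 of the MRL/+ mice, which is at least 1.49-fold more in MRL/lpr than in MRL/+. This bound sets the bright group against the dim probe or the lowest signal well above background in each channel, whichever was higher, after loess and Aquantile normalization. The probe was named for this split, so the direction of its bound was fixed by that choice and adds no support to the Kcnt1 call. How many of all probes on the array split this way was not counted. In MRL/+ replicates 2 and 4, 34.2% and 20.9% of all probes were well above background, against 55.5% to 69.2% in the other mice. A probe of Kcnk7, of the two-pore-domain class, was also too dim to be retained and was named for the same kind of split. It was well above background in all MRL/lpr mice and in 0 of the Fn14ko and 0 of the MRL/+ mice. The bounds were at least 2.09-fold over Fn14ko and at least 1.49-fold over MRL/+. Kcnma1, the large-conductance calcium-activated channel, had 0.62 ± 0.22 at the probe named (adjusted p = 0.0661), and its 4 probes lay between 0.06 and 0.62.

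**Figure D5:**
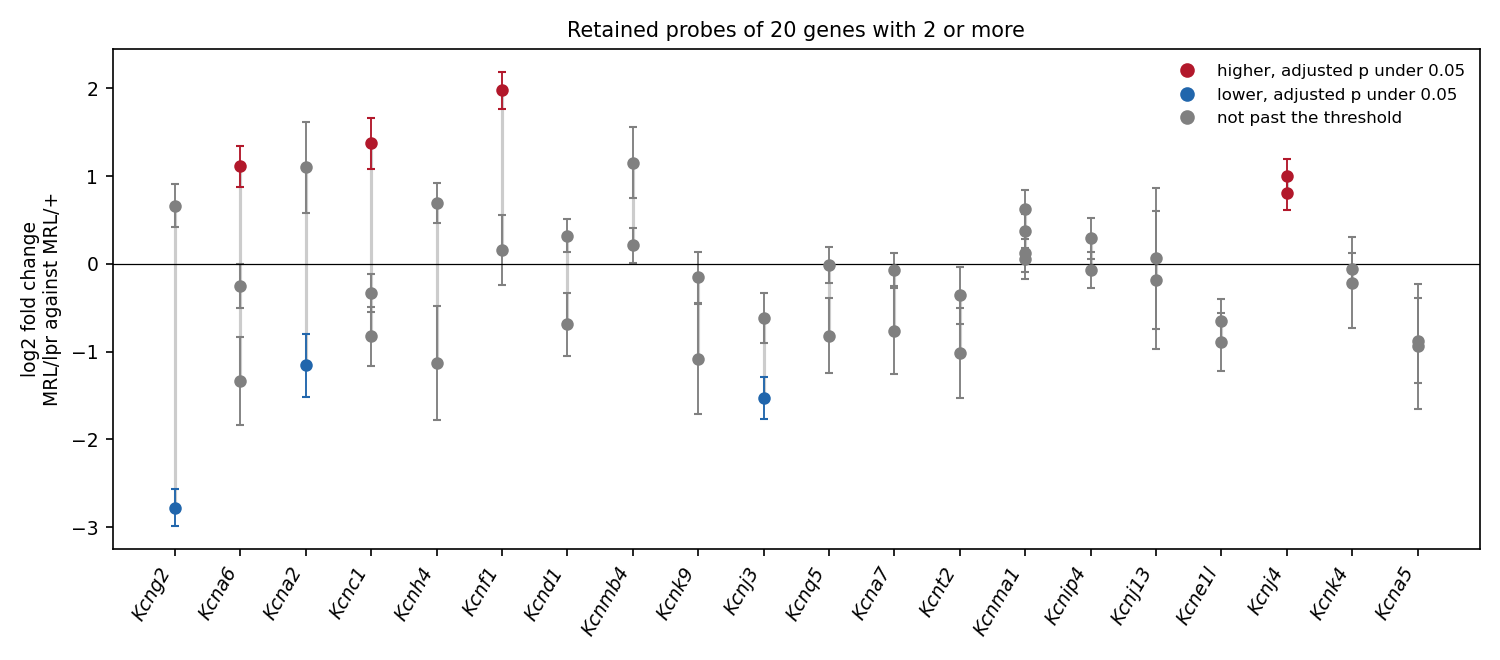
Log2 fold change of MRL/lpr against MRL/+ with its standard error for each retained probe of 20 of the 23 genes with 2 or more, ordered by the distance between a gene's lowest and highest probe; colours show the limma result. Kcng2 spans 3.44 log2 units, and both probes of Kcnj4 lie above 0.

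Against MRL/+, 3 of the 104 probes passed the test in Fn14ko, 2 higher and 1 lower, that is 2.88% where 1.09% of all retained probes did (51 or 0.227% higher and 194 or 0.865% lower). The 4 mice of each group did not overlap in 4 members in the higher and 11 in the lower direction, against 7.13% and 6.86% of all. Kcnn2, a small-conductance calcium-activated channel that shapes the pause after an action potential, had 5.93, 5.01, 5.69 and 4.98 in Fn14ko and 3.34, 2.02, 3.65 and 1.95 in MRL/+ (log2 fold change 1.03 ± 0.21, adjusted p = 0.0356). Kcnf1 had 0.99 ± 0.21 (0.0431) and the first Kcnj3 probe -1.17 ± 0.24 (0.0388). All 3 kept their direction without MRL/+ replicates 2 and 4, and none passed the threshold there (0.76, 1.06 and -1.06, adjusted p = 0.232 to 0.333). The median log2 fold change was -0.25 over the members and -0.14 over all probes.

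MRL/lpr and Fn14ko share lpr and differ in Fn14. Of the 104 probes, 7 were higher and 4 lower in MRL/lpr than in Fn14ko, 10.6% where 4.03% of all retained probes passed (509 or 2.27% higher and 394 or 1.76% lower), with medians of -0.00 over the members and -0.08 over all. Leaving out 1 mouse in turn gave 1 to 11 higher and 3 to 4 lower. Kcnk15 had the largest difference, -2.40 ± 0.34 (5.28-fold lower in MRL/lpr, adjusted p = 0.00199). Of all member probes it was the only one still past the threshold when no dim spot was left out (adjusted p = 0.0326).

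Kcnj9 had 1.16, 1.14, 2.66 and 1.20 in Fn14ko, all below the MRL/lpr mice (1.54 ± 0.28, adjusted p = 0.00759), and its Fn14ko and MRL/+ levels overlapped (0.10 ± 0.28, adjusted p = 0.83). Kcnab3 had 1.33, 1.68, 3.11 and 1.49 in Fn14ko (1.48 ± 0.34, adjusted p = 0.027), with 0.02 ± 0.34 for Fn14ko against MRL/+. Kcnt1 (1.26 ± 0.27), Kcnf1 (0.98 ± 0.21), the second Kcng2 probe (0.96 ± 0.25), Kcnv1 (0.90 ± 0.18) and Kcna4 (0.78 ± 0.19) were higher too, with adjusted p from 0.0145 to 0.0458. Over all members the mice did not overlap in 17 in the higher and 8 in the lower direction, against 8.43% and 11.1% of all retained probes. They did not overlap in 10 of the 11 called probes; Kcna4 was the exception, with an exact permutation p of 0.0857. Without MRL/+ replicates 2 and 4, which also inform the common error, 3 higher (Kcnj9, Kcnt1 and Kcnv1) and all 4 lower probes stayed past the threshold. The comparisons share mice.

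The lower probes in MRL/lpr than in Fn14ko were, besides Kcnk15, the first Kcng2 probe (-1.83 ± 0.22, adjusted p = 0.000738), Kcnab1 (-1.50 ± 0.23, 0.00256) and Kcnn2 (-0.86 ± 0.21, 0.0341). The mice did not overlap for any of the 4. Kcnn2 had 3.16, 2.96, 3.52 and 2.34 in MRL/lpr, close to MRL/+ (0.17 ± 0.21, adjusted p = 0.558), so that Fn14ko was the group apart, whereas MRL/lpr was apart for Kcnab1.

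One of these hexamers, AATAAA or ATTAAA, read on the strand of the probe, was present in 6 of the 14 probes higher in MRL/lpr than in MRL/+ (among them those of Kcnc1, Kcnh3, Kcnj4, Kcnj9 and Kcnt1) and in 0 of the 15 lower ones. It was present in 27 of all 151 member probes and in 16.7% of all probes on the array. On the whole array it was held by 25.5% of the higher, 10.6% of the lower and 19.3% of the remaining retained probes. The opposite strand held it in 6 member probes (6.56% of all probes). The GC content had a median of 39.2% in the higher, 45% in the lower and 41.7% in the other retained member probes, against 41.7% on the array.

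Partner genes that are not members were read from 3 lists. Of 23 retained probes of channel partners, 3 were higher and 3 lower in MRL/lpr than in MRL/+, with a median log2 fold change of -0.02. Of all retained probes, 5.69% were higher and 9.3% lower in this comparison. The calls in the 3 lists were not read without MRL/+ replicates 2 and 4. Dpp10, which speeds the Kcnd channels, was higher at 2 probes (1.90 ± 0.26, adjusted p = 0.000924, and 1.57 ± 0.26, 0.00265) and so was Adam22 at 1, while Lgi1 (2 probes) and Cntnap2, which anchors Kcna channels on axons, were lower. Of 5 probes of the hyperpolarization-activated HCN channels, 1 (Hcn3) was lower, and of 18 of sodium pumps and potassium transporters 4 were higher, Atp1b3 among them (1.13 ± 0.31, adjusted p = 0.0294), and 1 lower.

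Markers of other cells were read in the same way, where 15% of all retained probes passed for MRL/lpr against MRL/+. Of endothelial markers, 3 of 6 probes rose in MRL/lpr over MRL/+, with a summed signal of 19.6 to 24.2 in MRL/lpr, 10.5 to 20.9 in Fn14ko and 10.8 to 14.3 in MRL/+. Of blood markers, 1 of 3 was higher, with sums of 91.3 to 229.6, 32.9 to 95.2 and 24.3 to 46.8. Of myelin markers, 1 of 10 was higher and 2 lower (71.1 to 111.0, 106.3 to 134.5 and 101.9 to 119.3), of cortical excitatory neuron markers 3 of 13 were higher and 3 lower (51.6 to 56.3, 47.3 to 59.1 and 44.8 to 71.6) and of interneuron markers 2 of 8 were higher (75.4 to 86.4, 77.2 to 119.5 and 63.3 to 91.9). Of astrocyte markers 1 of 12 was lower (31.2 to 36.5, 42.4 to 44.3 and 31.0 to 46.7), and of microglial markers 1 of 11 was higher and 1 lower (57.4 to 80.2, 53.3 to 77.4 and 57.8 to 75.6). By limma 0 of 10 striatal, 0 of 6 cerebellar and 0 of 3 lymphocyte markers passed, although the striatal sum reached 181.9 in 1 Fn14ko mouse against 13.1 to 45.4 over the MRL/lpr and MRL/+ mice. Of the listed markers only the lymphocyte gene Cd3g was well above background in 0 mice. Between MRL/lpr and Fn14ko, where 4.03% of all retained probes passed, 2 excitatory neuron markers were higher in MRL/lpr (Rorb, 1.26 ± 0.16, adjusted p = 0.000892, and Cux2, 1.82 ± 0.37, 0.0148) and 1 lower (Neurod6, -2.11 ± 0.39, 0.00835). In the same comparison 1 myelin marker was higher and 2 lower (Mobp and Cnp), 1 interneuron marker was higher (Vip) and 1 astrocyte marker lower (Gfap, -1.13 ± 0.21, 0.00804), and by limma no marker of the other cell types listed passed. For Fn14ko against MRL/+, 1 of all these markers passed (Camk2a, lower). Marker calls against MRL/+, like those of partner genes, were not read without MRL/+ replicates 2 and 4. The part of these cell types in the potassium channel results was not tested.

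Kcnj13, which choroid plexus epithelium expresses, varied widely among mice of the same group. One of its 2 probes had 0.308, 0.332, 1.07 and 0.308 in MRL/lpr, 1.08, 1.67, 0.216 and 1.92 in Fn14ko and 0.452, 0.732, 0.214 and 0.784 in MRL/+. Its means in MRL/lpr, Fn14ko and MRL/+ were 0.50, 1.22 and 0.55, and 0.58, 1.05 and 0.45 at the other probe. No comparison passed by limma at either probe (lowest adjusted p 0.412). With standard errors of 0.78 and 0.81, a difference between groups could not be told from the spread among mice. Of 11 choroid plexus probes, 1 (Clic6) was lower in MRL/lpr than in MRL/+, and their summed signal ranged from 8.60 to 104.2 in MRL/lpr, 15.6 to 191.7 in Fn14ko and 20.2 to 276.1 in MRL/+. Kcne2, also of choroid plexus, had no retained probe.

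The members left without a value were mostly dim. No retained probe was had for 21 genes, among them the cardiac and epithelial channels Kcnj1, Kcne1 and Kcnj15, and 20 member probes were well above background in 0 mice. The 3 retained probes of noncoding transcripts named after potassium channel genes passed no test.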

How the data were processed

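The authors deposited the scanner output of 6 two-colour Agilent arrays, with the mean foreground and median local background intensity of each spot in both channels, before normalization, and the quality marks of Feature Extraction 12.1.0.3 (per the file headers). Other marks used are the deposited calls of spots that are well above background, uneven or outliers. Probe sequences and mm9 positions are those deposited. Here, normexp correction (limma 3.58.1, R 4.3.3, offset 50) was applied, spots marked, or dimmer than 2 times their local background, in any of 12 samples were dropped, and each channel was divided by its median. Spots of a probe were averaged. Log2 signals were fitted by limma with group and dye as terms, the array as a random block (correlation 0.32) and a variance trend, with Benjamini-Hochberg adjustment over 22419 probes at 0.05. Exact permutation tests used the 70 divisions of 8 mice. Members, lists and alternatives were chosen with earlier results of these data known. Named probes were those past the threshold (at most 12 per direction and comparison, by size), the brightest probe of 21 chosen genes (20 had one), other probes of called genes, choroid plexus genes, and probes well above background in 4 of 4 mice of a group and 0 of another; some genes are counted but not reported by name here. The number of arrays limits precision. The limma p-values set a difference between group means against the spread among separate mice within groups, estimated over all 3 groups. Since every group had its own slide, differences between slides are not part of that spread. Python 3.11.15, pandas 2.3.3 and matplotlib 3.10.9 were also used.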

Additional observations from a re-analysis of the deposited data

Results flagged for a closer look

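3 probes had 1 mouse far from the other 3 of its group, as judged by its gap to the nearest mouse over the range of the group, of 93 groups of 4 tested; chance flags about 1 in 20. Kcnj9 in Fn14ko had a gap ratio of 0.938, with replicate 3 at 2.66 and the other mice at 1.14 to 1.20. Kcna3 in MRL/lpr had 0.874, with replicate 2 at 0.280 and the others at 0.379 to 0.396. Kcns2 in Fn14ko had 0.836, with replicate 1 at 1.23 and the others at 0.853 to 0.906. The cause was not tested for any of the 3.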

How the results depend on the processing

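Counts are given as higher and lower members for MRL/lpr against MRL/+, Fn14ko against MRL/+ and MRL/lpr against Fn14ko, which were 14 and 15, 2 and 1, and 7 and 4. Plain background subtraction gave 26 and 26, 6 and 19, 19 and 9, the processed signal 15 and 10, 4 and 7, 12 and 5, and loess with Aquantile scaling 23 and 23, 5 and 9, 18 and 6. Scaling to the 75th percentile gave 13 and 20, 2 and 5, 8 and 5, and moved the median of all probes from -0.15 to -0.38 and from -0.14 to -0.39 against MRL/+. Higher probes were 48.3%, 66.7% and 63.6% of the calls, 60%, 36.4% and 70.6% in the processed signal and 39.4%, 28.6% and 61.5% at the 75th percentile. With no filter on dim spots limma called 0 and 0, 0 and 0, 0 and 1 of 149 (28 and 38, 11 and 2, 10 and 10 at an unadjusted p under 0.05). Refitted on only the probes well above background in all 12 samples, the 27 members had 8 and 6, 3 and 2, 6 and 4. Of the 8091 probes in that fit 29.4%, 12.4% and 15.3% passed. Keeping marked spots gave 14 and 15, 2 and 1, 6 and 4, and gene means 10 and 12, 1 and 0, 6 and 3 of 76 genes. Without the dye term the counts were 17 and 16, 1 and 1, 10 and 3, without the array block 23 and 27, 6 and 14, 17 and 5, and with only the groups compared 14 and 16, 3 and 3, 7 and 4. The methods' t-test after Benjamini-Hochberg gave 8 and 2, 0 and 0, 1 and 2. Leaving out the Cy5 MRL/+ mice gave 10 and 3, 0 and 0, 3 and 4, and the Cy3 mice alone 16 and 7, 0 and 1, 3 and 4. A capped local background, chosen after seeing the data, gave 24 and 24, 6 and 19, 18 and 6. Of all retained probes 26%, 15.7% and 13.1% passed there. Leaving out 1 mouse in turn gave 8 to 20 and 2 to 32, 0 to 6 and 0 to 19, 1 to 11 and 3 to 4; the lowest counts against MRL/+ came without MRL/+ replicate 4 (8 and 2, 0 and 0, 1 and 3) and the highest lower counts without MRL/+ replicate 3 (16 and 32, 6 and 19, 2 and 3). Fn14ko against MRL/+ gave 0 and 0 also without MRL/lpr replicate 1 or 3 and without Fn14ko replicate 2 or 3. The replicate block gave 23 and 33, 6 and 16, 17 and 7. Same-numbered mice are different animals that share the number and the dye, and their deviations correlated at -0.29 to 0.46. Between Fn14ko and MRL/+ the correlations were 0.46, 0.17, 0.37 and -0.29 for replicates 1 to 4. Whether same-numbered mice share more than that was not tested. The 39 named differences past the threshold kept their direction in all alternatives run, except 2 under gene means, which average probes that disagree: Kcng2 for MRL/lpr against Fn14ko (0.28) and Kcna2 (0.82) for MRL/lpr against MRL/+. The share of all retained probes that passed moved too, from 15%, 1.09% and 4.03% to 31.6%, 19.6% and 15.4% with background subtraction, 17.7%, 6.29% and 10.6% in the processed signal, 28.2%, 10.4% and 12.2% with loess, 31.7%, 12.9% and 9.26% without the array block, 38.5%, 15.3% and 10.1% with the replicate block, 5.08%, 0.0446% and 2.81% without the Cy5 MRL/+ mice, 33.3%, 15.6% and 2.16% without MRL/+ replicate 3 and 4.58%, 0.00892% and 1.78% without MRL/+ replicate 4. The share was 18%, 3.96% and 4.64% at the 75th percentile and 8.24%, 1.19% and 2.58% in the Cy3 mice alone. By the t-test it was 4.08%, 0% and 1.01%, and with no filter on dim spots 0.0414%, 0% and 0.0983%. It was 14.2%, 0.858% and 3.61% with marked spots kept and 14.4%, 0.954% and 4.57% for gene means. Without the dye term it was 16.1%, 1.83% and 4.53%, and with only the groups compared 14%, 2.63% and 3.82%. The fewest member probes were well above background in the Cy5 MRL/+ channels, which enter every comparison with MRL/+. The cause of the changes in counts and shares was not tested.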
